A study of Mus musculus with 12 samples.

Results

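Some probe sets of an exon array stay dim although the gene they belong to is bright. These low probe sets are described here in the cerebellum of NMF291–/– mice and wild-type mice. A probe set is a small group of probes that reads 1 stretch of a gene, usually an exon or a piece of one. A probe set was kept when it carried exactly 1 gene symbol, was not listed in the gene-level table, lay in a gene with 5 or more such probe sets whose median value was 9 or more (log2, mean of 6 arrays), and had a mean of its own 3 or more below that median. This rule gave 2442 low probe sets in 1826 genes. They are 2.75% of the 88713 probe sets of 5497 well expressed genes, in a table of 229581 probe sets. The rule used the mean over both genotypes and not the difference between them, so the low level is a description and the genotype difference could be tested.

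The NMF291–/– group is 3 female mice at postnatal day 30 that carry a deletion of 5 nucleotides in Rnu2-8, a gene for U2 snRNA. The wild-type group is 3 female mice of the same age. Total RNA of the cerebellum was hybridised to 1 Affymetrix Mouse Exon 1.0 ST array per mouse, and the series text calls the mice biological replicates. The labels name no driver or cell type that restricts the mutation. The genetic background of the mice is not given in the sources used here. In RNA from whole tissue, fewer cells of a type and less RNA per cell cannot be told apart.

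U2 snRNA is the RNA with which the spliceosome recognises the branch site of an intron by base pairing before the intron is removed. An exon that most mature transcripts skip, or an intron that is removed from most of them, gives a weak signal inside a bright gene, and a splicing defect can raise or lower that signal. A region that is never transcribed and a probe that binds poorly give a weak signal too. Which of these a given low probe set is cannot be told apart here, because probe positions and probe sequences were not used.

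The 6 arrays were close to one another. Array medians at exon level ran from 8.53 to 8.60 (log2). Across the low probe sets, which are not independent of one another, the correlation ran from 0.912 to 0.940 between arrays of the same genotype and from 0.906 to 0.930 between a mutant and a wild-type array. Arrays carry no counts, so the precision is set by the 3 arrays per genotype. The labelled tissue was checked against its markers at gene level. The granule neuron markers Gabra6, Neurod1, Zic1, Zic2, Cbln1 and Cbln3 lay between the 96.7th and the 99.5th percentile of the table. The Purkinje cell marker Pcp2 lay at the 85.8th percentile, while the forebrain marker Neurod6 lay at the 31.8th. The choroid plexus marker Ttr lay at the 99.9th percentile. The choroid plexus markers Ttr, Folr1 and Kl were at 13.27, 8.98 and 8.22 in the mutants and 13.74, 9.47 and 8.82 in wild type. All were lower in the mutants, and the part of this tissue in the other values was not tested.

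Low probe sets sat far under their genes. Their mean values had a median of 6.14 (log2), with quartiles of 5.13 and 6.91 and a range of 2.51 to 9.68. The other probe sets of the same genes had a median of 10.14. The median low probe set lay 3.86 below its gene, 1086 lay 4 or more below, 546 lay 5 or more below and 227 lay 6 or more below. The 10th percentile of the whole table was 5.40, and 734 low probe sets were under it. The spread between arrays of one genotype was wider at these levels, with a median SD of 0.299 for low probe sets and 0.10 for the other probe sets of the same genes.

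**Figure D1:**
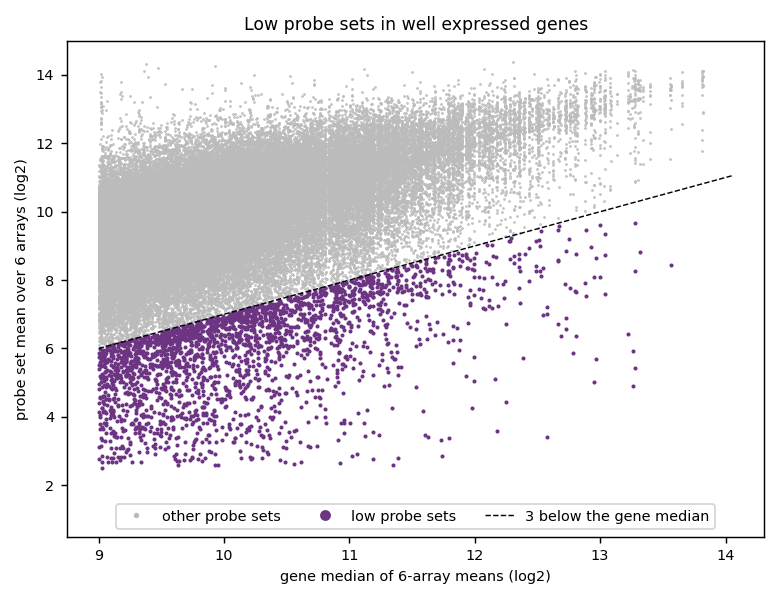
Each point is 1 probe set of a well expressed gene, with the gene's median on the horizontal axis and the probe set's mean over 6 arrays on the vertical axis (both log2). The low probe sets lie on and under the dashed line drawn 3 below the gene median, from 2.51 to 9.68.

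The probe sets farthest below their genes belonged to Btbd3, Rpl34 and Bex3. Btbd3 encodes a BTB-domain protein that orients dendrites, and its probe set 5595198 lay 9.17 below the gene. It had values of 3.72, 3.53 and 3.21 in the mutants and 3.49, 3.33 and 3.18 in wild type. Rpl34, a protein of the large ribosomal subunit, had a probe set (5433291) 8.87 below the gene, and Bex3 had one (5523013) 8.77 below it. In all 3 the genotypes overlapped in own level. At the limit itself, St13 (4553689) and Med10 (5416546) lay just inside, at 3.001 below their genes, while Pigu (5103565) and Chmp4b (4392654) lay just outside, at 2.99967 and 2.99919 below.

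A low probe set is one of several features of its gene, and most genes held a single one. Of the 5497 well expressed genes, 33.2% had a low probe set. A single low probe set was found in 1357 genes, 2 in 360 genes and 3 or more in 109 genes. Genes with a low probe set had a median of 16 probe sets, and the other well expressed genes had a median of 13. Every gene kept at least 3 remaining probe sets, which are those of the gene that are not low.

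The first comparison asked whether low probe sets changed in level in the mutant cerebellum. By own level, 8 of 2442 low probe sets passed, 5 higher and 3 lower in the mutants (limma, Benjamini-Hochberg adjusted over all 229581 probe sets, threshold 0.05). Those that rose belong to Ptbp1, Lyst, Dclre1b, Tbp and Shoc2. Those that fell belong to Chchd6, Mettl26 and Cdk17. The 8 make up 0.328% of the low probe sets, against 1.00% of all probe sets tested (0.603% higher and 0.402% lower). Of the other probe sets of the same genes, 476 passed (1.47%). These 8 are named because they passed, after their values were seen.

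Ptbp1 encodes a repressor of neuronal exons. Its low probe set 5616977 had values of 6.88, 7.10 and 6.63 in the mutants and 6.07, 5.64 and 5.59 in wild type (log2). It rose by 1.10 ± 0.17 (SE; limma adjusted p = 0.048). The remaining probe sets of the gene rose with it, by 1.09 ± 0.08 (SE; limma adjusted p = 0.00144, over 13674 genes), to 11.002 ± 0.03 in the mutants against 9.91 ± 0.13 in wild type (SD, n = 3 each). The distance of the low probe set to its gene differed by 0.01 ± 0.21 between the genotypes (SE), and by 0.26 where the mean of the remaining probe sets was taken as the gene's level.

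Lyst, a regulator of lysosomal trafficking, showed a rise of the low probe set and of the gene together. Probe set 5477349 was at 7.53, 7.42 and 7.58 in the mutants and at 6.80, 6.47 and 6.46 in wild type, a rise of 0.93 ± 0.12 (SE; limma adjusted p = 0.0327). The remaining probe sets of Lyst rose by 0.58 (limma adjusted p = 0.0118). Every mutant array lay above every wild-type array.

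In the next 3 genes the remaining probe sets did not pass. Tbp encodes the TATA-binding protein that places RNA polymerases at promoters. Its probe set 4661341 was at 7.42, 7.37 and 7.46 in the mutants and at 6.79, 6.37 and 6.58 in wild type, a rise of 0.84 ± 0.12 (SE; limma adjusted p = 0.04), while its gene differed by -0.14. Shoc2, a scaffold that promotes RAF activation by RAS, had a probe set (4622783) at 6.63, 6.40 and 6.42 in the mutants and 5.75, 5.68 and 5.68 in wild type. It rose by 0.78 ± 0.09 (SE; limma adjusted p = 0.0293), and the gene differed by 0.25. Dclre1b encodes Apollo, a nuclease that processes telomere ends. Its probe set 5267369 was at 5.63 ± 0.13 in the mutants and 4.73 ± 0.16 in wild type (SD, n = 3 each), a rise of 0.89 ± 0.12 (SE; limma adjusted p = 0.0346) beside 0.18 for the gene.

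Cdk17, a cyclin-dependent kinase of postmitotic cells, held the largest fall of the 3. Probe set 5407003 was at 6.31, 6.11 and 6.37 in the mutants and at 7.34, 7.41 and 7.58 in wild type. It fell by 1.18 ± 0.11 on the log2 scale (SE; limma adjusted p = 0.0202), while the remaining probe sets of Cdk17 differed by 0.08 and did not pass. Mettl26 5496949 fell by 0.83 ± 0.12 (SE; limma adjusted p = 0.0412), with 5.76, 5.97 and 6.01 in the mutants and 6.94, 6.66 and 6.62 in wild type. The remaining probe sets of that gene fell as well, by 0.43 (limma adjusted p = 0.0307). Chchd6, a subunit of the complex that shapes mitochondrial cristae, had a dim probe set (4326850) at 3.30, 3.47 and 3.29 in the mutants and 4.14, 3.99 and 3.95 in wild type. It fell by 0.67 ± 0.10 (SE; limma adjusted p = 0.0393), and its gene differed by 0.06.

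**Figure D2:**
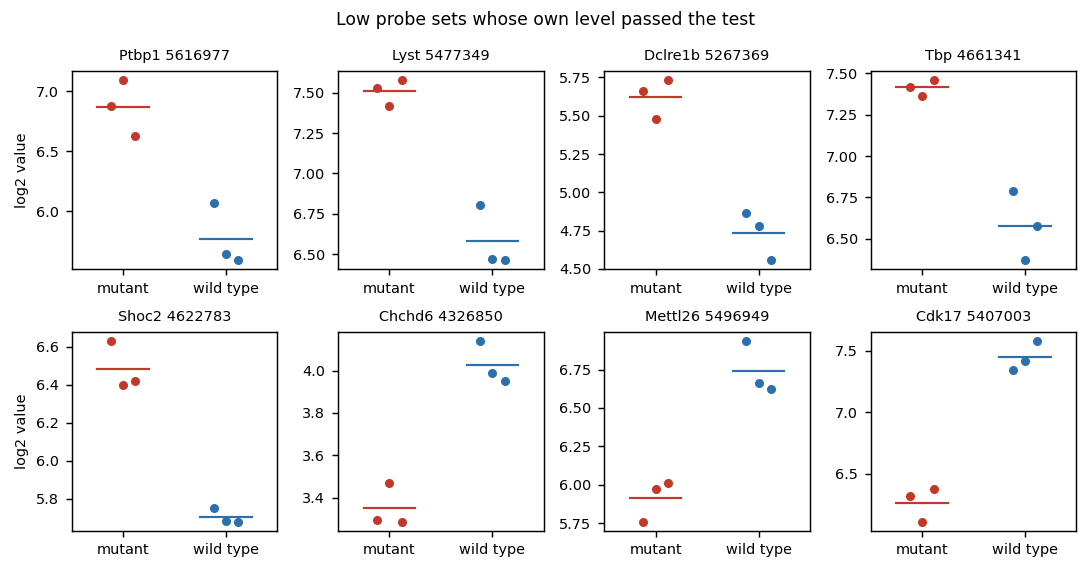
Log2 values of the 8 low probe sets whose own level passed, 1 panel each, with 3 mutant arrays left of 3 wild-type arrays and a bar at each mean. In every panel the genotypes do not overlap, and the axes do not start at 0.

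None of these 8 passed when any 1 of the 6 arrays was left out, where their adjusted p-values ran from 0.0706 to 0.159 (limma). Their differences kept their direction there, at -1.23 to -1.10 for Cdk17 and 0.98 to 1.25 for Ptbp1. With a variance trend and robust settings together in eBayes, 58 low probe sets passed (2.38%), against 6.78% of all probe sets and 4309 of the other probe sets of the same genes (13.3%). Without any test, 223 low probe sets (9.13%) had every mutant array above every wild-type array, against 14.0% of all probe sets, and 131 (5.36%) had every mutant array below, against 10.1%.

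The second comparison asked whether low probe sets followed their genes. The level of a gene was taken as the median of its remaining probe sets on each array. By this level 67 genes with a low probe set rose and 56 fell (limma, adjusted over 13674 genes, of which 3.06% rose and 1.80% fell). In the 67 genes that rose, 73 of 84 low probe sets were higher in the mutants, where 57.0% of all 2442 low probe sets were. The 84 had a median difference of 0.30, beside 0.42 for the genes. In the 56 genes that fell, 71 of 88 low probe sets were lower, with a median difference of -0.29 beside -0.43 for the genes. Of the other probe sets of these genes, 1157 of 1189 were higher where the gene rose and 1540 of 1569 were lower where it fell. Those probe sets set the level of the gene, so their share follows from the call. With any 1 array left out, 12 to 41 of the genes with a low probe set rose and 14 to 23 fell.

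Across all 2442 low probe sets, the own difference and the gene difference correlated at 0.370, with a slope of 0.717. For the 32328 other probe sets of the same genes the correlation was 0.787, with a slope of 0.887. Each of those is part of the gene level it was set against, and low probe sets are not. That raises the correlation of the others, so 0.370 and 0.787 are not a like comparison. Both correlations are descriptions across probe sets of the same 6 arrays, and probe sets of 1 gene share its level. By distance below the gene, the correlation was 0.434 for the 1356 low probe sets from 3 to 4 below, 0.283 for the 540 from 4 to 5 below, 0.330 for the 319 from 5 to 6 below and 0.212 for the 227 that lay 6 or more below. The median SD between arrays of one genotype was 0.275, 0.345, 0.383 and 0.264 in these groups, in the same order. Neither measure ran steadily with distance.

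**Figure D3:**
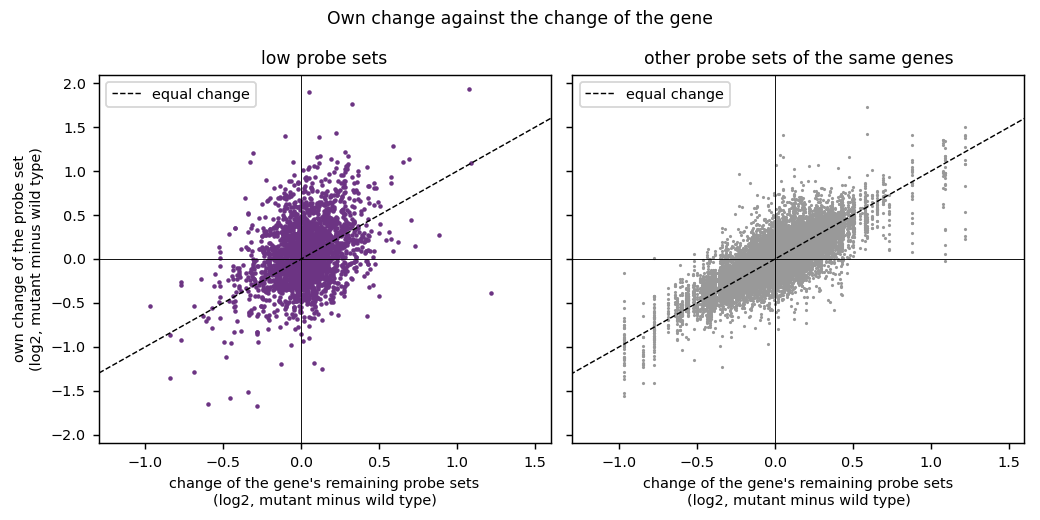
Difference of each probe set (vertical axis) against the difference of its gene's remaining probe sets (horizontal axis), mutant minus wild type on the log2 scale, for low probe sets on the left and the other probe sets of the same genes on the right. The low probe sets spread more widely around the dashed line of equal change (correlation 0.370) than the others (0.787). The others are part of the gene level on the horizontal axis, and the low probe sets are not.

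The third comparison asked whether low probe sets changed relative to their genes, as they would if an exon or intron were kept more or less often. The index is the log2 value of a probe set minus the median of the gene's remaining probe sets on the same array. It also moves when the gene changes and the low probe set follows less. Where the gene passed as higher, the median index difference of low probe sets was -0.11, and where it passed as lower, 0.16. Those genes were selected by the same level that the index subtracts, so an index difference of the opposite sign is partly built in. Whether a change of the gene or of exon or intron use lies behind a given index difference was not tested. No low probe set passed by this index, and none of all 201085 probe sets tested did (0% called, limma, Benjamini-Hochberg). The smallest adjusted p among low probe sets was 0.0988, for Cdk17. At an unadjusted p under 0.05 there were 328 low probe sets (13.4%), 187 higher and 141 lower. The 187 are 7.66% of the low probe sets, against 4.24% of all probe sets tested, and the 141 are 5.77%, against 4.25%. The same threshold took 8.48% of all probe sets tested and 1949 (6.03%) of the other probe sets of the same genes.

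That excess depended on how the spread was modelled. With a variance trend and robust settings in eBayes, 149 low probe sets (6.10%) had an unadjusted p under 0.05, against 8.43% of all probe sets and 1851 (5.73%) of the other probe sets of the same genes. Low probe sets also had the wider spread between arrays given above. Groups that did not overlap were found for 180 low probe sets with a higher index (7.37%, against 7.21% of all) and for 152 with a lower index (6.22%, against 7.30% of all).

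The index differences themselves were wide and nearly centred. Their median was 0.03, and 1342 of 2442 were positive (55.0%). The 5th and 95th percentiles were -0.49 and 0.62 for low probe sets, against -0.22 and 0.23 for the other probe sets of the same genes. A difference of 1 or more in size was seen in 23 low probe sets (0.94%) and 9 of the others (0.028%). The median index of the low probe sets was -3.995, -3.93 and -4.08 on the mutant arrays and -3.91, -4.11 and -4.13 on the wild-type arrays. The genotypes overlap in this median, and without any 1 array the median difference ran from 0.0005 to 0.078.

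The 6 higher and the 6 lower low probe sets with the smallest p of the index are given next. None of the 12 passed after adjustment. On the higher side, Tbp 4661341 had an index of -3.51, -3.76 and -3.58 in the mutants and -4.40, -4.80 and -4.57 in wild type, a difference of 0.97 ± 0.13 (SE; limma adjusted p = 0.188). Jak1, a kinase of cytokine receptors, had a probe set (5055286) with a difference of 0.90 ± 0.13 (SE; limma adjusted p = 0.198). Its log2 values were 6.96, 7.003 and 7.31 in the mutants and 6.31, 6.27 and 5.89 in wild type, and its gene differed by 0.03. The separation in Jak1 therefore lay in the low probe set.

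In Dst, Tpm1 and Fmr1, as in Tbp, the gene level had a negative difference while the low probe set had a positive one. Of these 4 genes, the gene level passed in Dst. Dst, a linker of cytoskeletal filaments that is needed by sensory neurons, fell at gene level by 0.32 (limma adjusted p = 0.0374), while its probe set 5584362 was at 6.48, 6.66 and 6.60 in the mutants and 6.19, 6.20 and 6.29 in wild type. The index difference was 0.68 ± 0.11 (SE; limma adjusted p = 0.264). Tpm1, a tropomyosin of actin filaments with many splice forms, had a probe set (4404559) at 7.01, 7.02 and 7.03 in the mutants and 6.76, 6.77 and 6.49 in wild type. Its index difference was 0.59 ± 0.09 (SE; limma adjusted p = 0.227), and its gene differed by -0.25 and did not pass. Fmr1, which encodes the RNA-binding protein lost in fragile X syndrome, had an index difference of 0.56 ± 0.09 at 5485488 (SE; limma adjusted p = 0.278), with a gene difference of -0.15. In Dst, Tpm1 and Fmr1 the mutant arrays lay above the wild-type arrays in own level and in index.

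Pllp encodes plasmolipin, a membrane protein of myelin. Its probe set 5288163 was at 6.76, 7.03 and 7.13 in the mutants and 5.89, 6.01 and 6.35 in wild type, with an index difference of 0.76 ± 0.12 (SE; limma adjusted p = 0.264).

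On the lower side, the index of Cdk17 5407003 was -4.64, -4.80 and -4.65 in the mutants and -3.52, -3.46 and -3.31 in wild type. The difference was -1.26 ± 0.10 (SE), with an unadjusted p of 6.03e-06 and a limma adjusted p of 0.0988. A second low probe set of Cdk17, 5332738, was at 6.73 ± 0.23 in the mutants and 7.23 ± 0.33 in wild type (SD, n = 3 each), with an index difference of -0.58 (limma adjusted p = 0.527). Both lie in the same gene and share its level as reference.

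Pias4, a ligase that attaches SUMO to proteins, held the lowest index difference of all low probe sets, at -1.61 ± 0.23 (SE; limma adjusted p = 0.222). Here the gene rose while the low probe set differed by -0.38 in own level (limma adjusted p = 0.391). The remaining probe sets rose by 1.22, to 10.37 ± 0.11 in the mutants against 9.15 ± 0.07 in wild type (SD, n = 3 each; limma adjusted p = 0.00106). The low probe set 5086563 was at 5.49, 6.09 and 5.45 in the mutants and at 5.81, 6.23 and 6.13 in wild type. Its own levels overlapped between the genotypes.

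The other 4 on the lower side had smaller or noisier differences. Dap, a mediator of interferon-induced cell death, had a probe set (4575098) at 5.22, 4.78 and 5.30 in the mutants and 6.22, 5.75 and 6.14 in wild type. Its index difference was -0.95 ± 0.18 (SE; limma adjusted p = 0.321). Nfx1, a zinc finger regulator of transcription, differed by -0.65 at 4656410 and Ube4b, which extends ubiquitin chains, by -0.55 at 4757113 (limma adjusted p = 0.329 and 0.317). Chchd6 4326850 differed by -0.74 in index (limma adjusted p = 0.326).

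**Figure D4:**
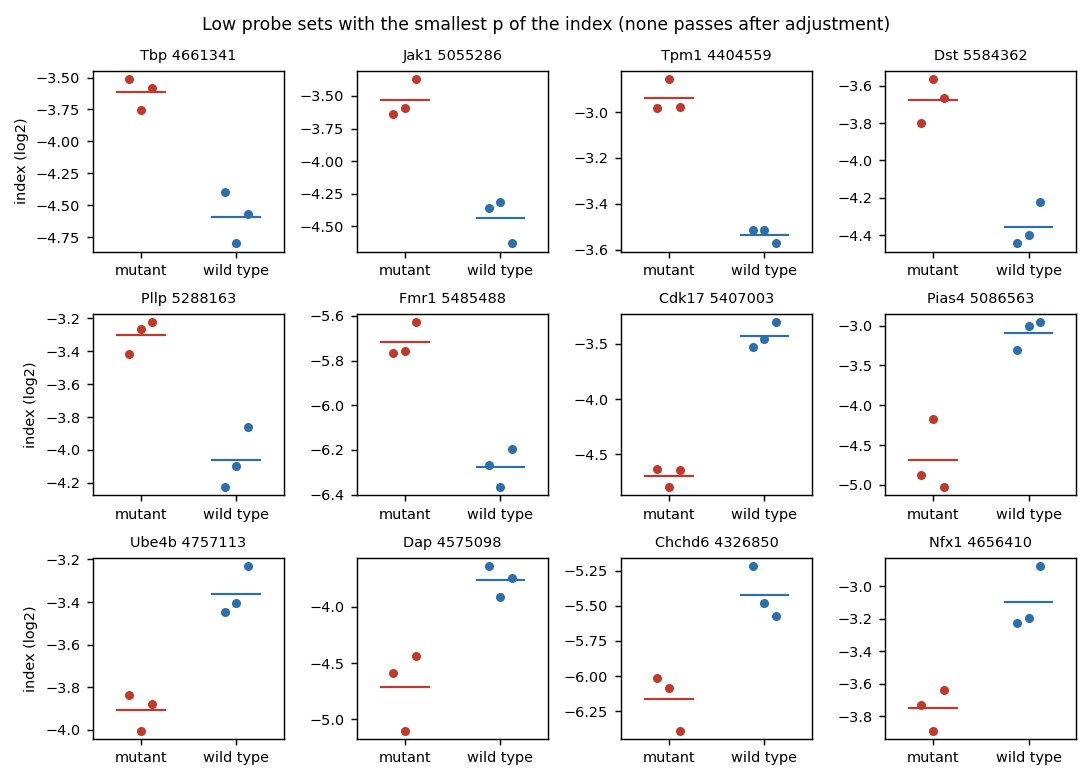
Index (log2 value minus the median of the gene's remaining probe sets) of the 12 low probe sets with the smallest p, with 3 mutant arrays left of 3 wild-type arrays and a bar at each mean. The panels were chosen by small p, the genotypes do not overlap in any of them, and none passed after adjustment; for Cdk17 the values run from -4.80 to -4.64 in the mutants and from -3.52 to -3.31 in wild type.

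Low probe sets in genes of the splicing machinery were examined by list. No low probe set of any of the 18 gene lists passed by index, and by own level the Ptbp1 probe set was the 1 that passed. Among SR proteins and their partners, 16 of 30 well expressed genes held 25 low probe sets (53.3% of genes, against 33.2% of all well expressed genes). Of these 25, 15 had a positive index difference, with a median of 0.08. The share of genes with a low probe set was not particular to SR proteins. It was above 33.2% in every other list except myelin and oligodendrocyte genes (28.6%), and 53.3% for Purkinje cell genes. Among hnRNPs and other splicing regulators, 27 of 49 genes held 42 low probe sets, 29 with a positive index difference and a median of 0.12. Among U2 snRNP and branch-site factors, 11 of 17 genes held 15 low probe sets, with a median own difference of 0.40, and 10 had a positive index difference (median 0.18). Over all low probe sets the median own difference was 0.05 and the median index difference 0.03.

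Srrm1, a coactivator of exon enhancers, held 3 low probe sets, 2 of which are given here. Probe set 5530707 was at 6.52, 6.34 and 6.54 in the mutants and 6.07, 5.22 and 5.72 in wild type, with an index difference of 0.72. Probe set 4880291 was at 7.70, 7.90 and 7.29 in the mutants and 7.12, 6.97 and 7.05 in wild type, with an index difference of 0.51. Neither passed (limma adjusted p = 0.476 for both), while the mutants lay above wild type in both. Its relative Srrm2 had a probe set (4442163) with an index difference of -0.26, and the mutants lay below wild type at 8.04, 7.89 and 7.91 against 8.10, 8.19 and 8.34.

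The kinases Clk1 and Clk4 phosphorylate SR proteins. Clk4 5485678 was at 6.92, 6.44 and 6.87 in the mutants and 7.52, 6.85 and 7.23 in wild type, with an index difference of -0.64 (limma adjusted p = 0.458). Clk1 5239353 was at 3.62, 3.70 and 3.70 in the mutants and 3.67, 3.34 and 3.71 in wild type, with an index difference of 0.35 (limma adjusted p = 0.526). The helicase Ddx39b, which helps U2 to bind the branch site, differed by 0.26 in index at 5355335. These values did not separate the genotypes by own level.

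Rbfox1, a neuronal splicing regulator, fell at gene level by 0.36 (limma adjusted p = 0.0287), while its low probe set did not fall. Probe set 5293398 was at 8.79, 8.69 and 8.67 in the mutants and 8.61, 7.71 and 7.74 in wild type, with an index difference of 1.06 ± 0.25 (SE; limma adjusted p = 0.386). Wild-type replicate 1 lay near the mutants. Ptbp2, the neuronal relative of Ptbp1, had a probe set (5468415) at 8.05, 7.98 and 8.16 in the mutants and 7.48, 7.55 and 7.29 in wild type. Its own difference of 0.63 missed the threshold (limma adjusted p = 0.0503), and its gene differed by 0.15. Hnrnpr 5535099 was at 4.91 ± 0.38 in the mutants and 4.02 ± 0.25 in wild type (SD, n = 3 each), with an own difference of 0.89 (limma adjusted p = 0.111).

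Sf3b1, the subunit of U2 that holds the branch-site helix, had a very dim probe set (5163733) at 4.25, 3.22 and 3.71 in the mutants and 3.21, 3.11 and 3.11 in wild type. The mutants lay above wild type, but mutant replicate 2 did so by little. Ddx46, a helicase that remodels U2, had a probe set (5512446) at 7.30, 7.44 and 6.95 in the mutants and 6.84, 6.46 and 6.11 in wild type. Its index difference was 0.52 (limma adjusted p = 0.572). Smndc1, a splicing factor with a tudor domain, rose at gene level by 0.41 (limma adjusted p = 0.0144), and its low probe set 4518877 differed by 0.06.

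Of the other spliceosome proteins, 13 of 26 well expressed genes held 17 low probe sets, 11 with a positive index difference (median 0.12). Prpf8, the protein at the centre of the spliceosome, rose at gene level by 0.33 (limma adjusted p = 0.0245). Its low probe set 5245840 was at 7.94, 8.22 and 7.80 in the mutants and 7.25, 7.38 and 6.98 in wild type, an own difference of 0.79 (limma adjusted p = 0.0704). Wbp11, a spliceosome protein that binds WW domains, had a probe set (5144755) at 5.87, 7.32 and 6.52 in the mutants and 5.37, 4.68 and 4.37 in wild type, with an index difference of 1.44 (limma adjusted p = 0.437). The mutant arrays of Wbp11 lay above wild type but far apart. Ddx17, an RNA helicase, had a probe set (4423969) with an index difference of -0.58 and a gene difference of 0.30.

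In nonsense-mediated decay and the exon junction complex, 4 of 9 well expressed genes held 7 low probe sets, 6 with a positive index difference and a median of 0.40. Casc3, a core protein of the exon junction complex, had 2 of them. Probe set 4309110 was at 5.49, 4.20 and 5.08 in the mutants and 4.58, 3.07 and 3.98 in wild type, and 5099574 was at 4.95 ± 0.40 in the mutants and 4.32 ± 0.36 in wild type (SD, n = 3 each). The genotypes overlapped in both. Upf1, the helicase of nonsense-mediated decay, had a probe set (5183536) with an index difference of -0.47.

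**Figure D5:**
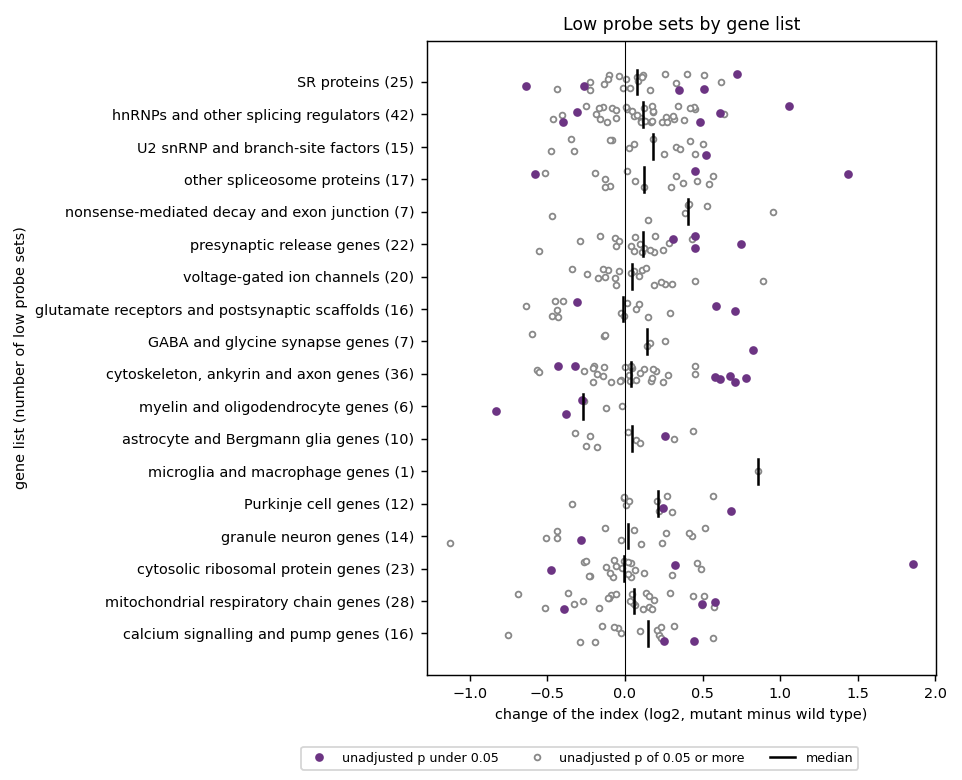
Index difference (log2, mutant minus wild type) of every low probe set in the 18 gene lists, 1 row per list, with the number of low probe sets in brackets; filled points have an unadjusted p under 0.05 and the vertical bar is the median. The medians run from -0.27 for myelin and oligodendrocyte genes to 0.86 for the single microglial probe set, and no point passed after adjustment.

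Neuronal genes came next. Among presynaptic release genes, 16 of 41 well expressed genes held 22 low probe sets, 16 with a positive index difference (median 0.12) beside a median own difference of -0.04. Erc1, an active-zone scaffold, fell at gene level by 0.34 (limma adjusted p = 0.0424), and both of its low probe sets, 4322464 and 5601248, differed by 0.11 in own level and by 0.45 in index. Rph3a, a vesicle protein that binds Rab3, fell at gene level by 0.46 (limma adjusted p = 0.0221). Its low probe set 5598023 was at 6.63, 7.34 and 7.01 in the mutants and 6.87, 6.78 and 6.48 in wild type. In both genes the low probe sets overlapped between genotypes in own level while the gene fell, and did not overlap in index.

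Among voltage-gated ion channels, 14 of 34 well expressed genes held 20 low probe sets, 11 with a positive index difference (median 0.05). An unadjusted p under 0.05 was found for 0 of the 20 (limma), against 13.4% of all low probe sets and 8.48% of all probe sets tested. The calcium channel gene Cacna1e fell at gene level by 0.56 (limma adjusted p = 0.0235), and its low probe set 5293087 was at 6.13 ± 0.22 in the mutants and 6.44 ± 0.31 in wild type (SD, n = 3 each). Cacna1d 4331857 spread from 4.51 to 6.48 within the wild-type arrays alone, which covers its index difference of 0.89. Cacna2d2, an auxiliary subunit of calcium channels, differed by -0.34 in index at 5000368.

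Glutamate receptors and postsynaptic scaffolds had 16 low probe sets in 11 of 31 well expressed genes, 7 with a positive index difference (median -0.01). Nlgn1, a postsynaptic adhesion protein with alternatively spliced inserts, had a probe set (5163272) at 4.80, 5.01 and 4.97 in the mutants and 4.33, 4.52 and 4.07 in wild type. Its index difference was 0.71 ± 0.13 (SE; limma adjusted p = 0.32). Grm4, a glutamate receptor of granule cell axons, had a probe set (4707867) at 6.80, 6.77 and 6.72 in the mutants and 5.61, 6.30 and 6.23 in wild type. For the scaffold Shank3, probe set 4811551 was at 4.23, 3.88 and 4.07 in the mutants and 4.39, 4.27 and 4.41 in wild type. Each of these 3 separated the genotypes, Shank3 with the mutants lower, and none passed.

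GABA and glycine synapse genes had 7 low probe sets in 5 of 14 well expressed genes, 4 with a positive index difference (median 0.14). The GABA receptor subunit Gabra4 had the smallest p, with a probe set (5240942) at 5.65 ± 0.20 in the mutants and 4.96 ± 0.68 in wild type (SD, n = 3 each). Probe sets of the GABA-B receptor gene Gabbr1 (5354342) and of the glycine receptor gene Glrb (5565954) differed by 0.26 and -0.60 in index, and both overlapped between genotypes.

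Cytoskeleton, ankyrin and axon genes were the largest neuronal group, with 36 low probe sets in 26 of 61 well expressed genes, 21 with a positive index difference (median 0.04). Ank3 encodes ankyrin-G, the organiser of the axon initial segment. Its probe set 5060679 was at 8.59, 8.73 and 8.60 in the mutants and 8.09, 8.01 and 7.66 in wild type, an index difference of 0.78 ± 0.14 (SE; limma adjusted p = 0.314). Sptbn4, the spectrin of the same structure, had a probe set (4937456) at 6.60, 6.21 and 6.70 in the mutants and 5.54, 5.92 and 6.12 in wild type. Neither passed, and the gene differences were -0.06 for Ank3 and 0.03 for Sptbn4.

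Markers of the main cerebellar neurons gave values on both sides of 0. Purkinje cell genes had 12 low probe sets in 8 of 15 well expressed genes, 9 with a positive index difference (median 0.21). Pcp2 5225547 was at 5.61, 6.06 and 6.41 in the mutants and 4.93, 5.82 and 5.40 in wild type, and overlapped between genotypes. Icmt, which methylates prenylated proteins, had a probe set (5538318) at 2.63 ± 0.10 in the mutants and 2.53 ± 0.06 in wild type (SD, n = 3 each), near the lowest values of the table. The phospholipase gene Plcb4 differed by 0.57 in index at 5586888.

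Granule neuron genes had 14 low probe sets in 10 of 23 well expressed genes, 7 with a positive index difference (median 0.02) beside a median own difference of -0.46. Tiam1, an activator of Rac, fell at gene level by 0.33 (limma adjusted p = 0.0463). Its low probe set 5089060 was at 6.99, 6.72 and 7.22 in the mutants and 7.65, 7.53 and 7.58 in wild type, an own difference of -0.61 (limma adjusted p = 0.0939). The synapse organiser Cbln1 and the transcription factor Zic5 differed by -0.44 each in index, at 4357402 and 5255006, while their gene differences were -0.05 and -0.01.

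Among well expressed glial genes, 28.6% of the myelin list, 36.4% of the astrocyte list and 33.3% of the microglia list held a low probe set. The share was 33.2% for all well expressed genes. All 6 in myelin and oligodendrocyte genes, from 4 of 14 well expressed genes, had a negative index difference, with a median of -0.27, where 55.0% of all low probe sets had a positive one. An unadjusted p under 0.05 was found for 3 of the 6 (limma). On the lower side it was found for 5.77% of all low probe sets and 4.25% of all probe sets tested. Of the 6, 3 lie in Mbp and share its level as reference. Those of Mbp include 2 of the 3 with such a p, so neither count is of independent probe sets. Tspan2, a tetraspanin of oligodendrocytes, had a probe set (4477704) at 4.54, 5.14 and 4.80 in the mutants and 5.42, 5.75 and 5.40 in wild type, an index difference of -0.83 ± 0.17 (SE; limma adjusted p = 0.341). The myelin basic protein gene Mbp held 3, of which 5190736 was at 5.93, 6.35 and 6.20 in the mutants and 6.53, 6.46 and 6.71 in wild type, and 5443043 had an index difference of -0.28. The remaining probe sets differed by 0.13 in Tspan2 and -0.03 in Mbp, and neither gene passed. Pllp, given above with a positive difference, was not in this list.

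Astrocyte and Bergmann glia genes had 10 low probe sets in 8 of 22 well expressed genes, 6 with a positive index difference (median 0.04). The bicarbonate transporter gene Slc4a4 had a probe set (5121448) at 7.50, 7.76 and 7.55 in the mutants and 7.37, 7.38 and 7.22 in wild type. Probe sets of the folate enzyme gene Aldh1l1 (4675667) and of the metallothionein gene Mt1 (5480425) differed by 0.31 and 0.44 in index and overlapped between genotypes.

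Microglia and macrophage genes had 1 low probe set, and 3 genes of that list were well expressed. It lies in Laptm5, a lysosomal membrane protein of immune cells. Probe set 5048146 was at 6.94, 8.06 and 6.38 in the mutants and 6.35, 4.87 and 4.38 in wild type, an own difference of 1.93 ± 0.60 (SE; limma adjusted p = 0.18). The remaining probe sets of Laptm5 rose by 1.08, to 10.02 ± 0.41 in the mutants against 8.95 ± 0.12 in wild type (SD, n = 3 each; limma adjusted p = 0.0203). Other microglial markers were higher in the mutants as well, Cx3cr1 at 9.18 against 8.48 in wild type and Csf1r at 9.19 against 8.50, and their part in the Laptm5 values was not tested.

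Genes of basic cell functions gave medians near 0. Cytosolic ribosomal protein genes had 23 low probe sets in 13 of 34 well expressed genes, 11 with a positive index difference (median -0.01). Rpsa, a protein of the small subunit, had the highest index difference of all low probe sets, 1.86 ± 0.50 (SE; limma adjusted p = 0.434), with probe set 4685031 at 5.21, 5.95 and 6.28 in the mutants and 4.88, 3.89 and 2.95 in wild type. Rplp0 5243003 was at 7.23 ± 0.21 in the mutants and 7.70 ± 0.05 in wild type, and Rpl4 5047915 at 4.36 ± 0.17 in the mutants and 4.0 ± 0.20 in wild type (SD, n = 3 each). Ribosomal protein genes have many processed copies, so these probe sets may share signal with them, which was not tested.

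Mitochondrial respiratory chain genes had 28 low probe sets in 22 of 53 well expressed genes, 17 with a positive index difference (median 0.06). Uqcrc2, a core subunit of complex III, had a probe set (4600045) at 9.01, 8.95 and 8.91 in the mutants and 8.45, 8.35 and 8.52 in wild type. Its own difference of 0.52 ± 0.08 (SE) missed the threshold (limma adjusted p = 0.0517), and the gene differed by 0.02. The complex I gene Ndufa5 differed by -0.39 in index at 5576816, and the ATP synthase gene Atp5o by 0.58 at 4695299.

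Calcium signalling and pump genes had 16 low probe sets in 9 of 21 well expressed genes, 9 with a positive index difference (median 0.15). The kinase genes Prkcb and Prkcz fell at gene level, by 0.52 and by 0.31 (limma adjusted p = 0.0107 and 0.0364). Their low probe sets, 5027243 and 5377580, differed by -0.08 and -0.06 in own level and overlapped between genotypes. The ryanodine receptor gene Ryr1 had a probe set (5056952) at 5.37 ± 0.58 in the mutants and 6.14 ± 0.57 in wild type (SD, n = 3 each).

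The 8 genes with the most low probe sets were Kpna2, Phactr1, Ppp1r9a and Dst with 6 each, and Gpbp1l1, Ncoa7, Mtus1 and Ciz1 with 5 each. Dst has 120 probe sets, so its 6 are a small share, while Kpna2 has 19. Kpna2 encodes an importin that carries proteins into the nucleus. Of its 6 low probe sets, 3 had a positive and 3 a negative index difference, from -0.30 to 1.21. The highest, 4966201, was at 4.58, 6.33 and 5.50 in the mutants and 4.49, 3.23 and 4.39 in wild type.

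Some genes held low probe sets with index differences of opposite sign. Mtus1, a microtubule-associated protein, fell at gene level by 0.34 (limma adjusted p = 0.0289). Its probe set 5546407 was at 4.66, 5.00 and 4.89 in the mutants and 6.62, 6.77 and 5.72 in wild type, an own difference of -1.52 ± 0.28 (SE; limma adjusted p = 0.0632). Its index difference was -1.18. Another, 4366767, was at 5.14, 5.11 and 4.86 in the mutants and 4.25, 4.92 and 5.02 in wild type, with an index difference of 0.65. Its own difference was 0.31, and the genotypes overlapped in own level. Ncoa7, a protein that protects cells against oxidation, had index differences of 0.60 at 5023160 and -0.53 at 5252463. None of these passed by index.

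Phactr1 and Ppp1r9a both encode regulators of protein phosphatase 1 and actin. In Phactr1, 4851818 was at 5.04, 5.16 and 5.36 in the mutants and 5.80, 5.61 and 5.47 in wild type, with an index difference of -0.50 (limma adjusted p = 0.403). Its other 5 low probe sets ran from -0.04 to 0.13. In Ppp1r9a, 5457080 was at 5.83, 6.35 and 6.19 in the mutants and 5.41, 5.53 and 5.49 in wild type, with an index difference of 0.49 (limma adjusted p = 0.472). The index differences of Ppp1r9a ran from -0.36 to 0.49.

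Gpbp1l1 and Ciz1, a protein linked to DNA replication, held 5 low probe sets each. All 5 of Gpbp1l1 had a positive index difference, from 0.00 to 0.88. The highest, 4693334 (limma adjusted p = 0.468), was at 6.51, 6.24 and 6.63 in the mutants and 5.14, 5.47 and 6.19 in wild type. The 5 of Ciz1 ran from -0.03 to 0.55, and none had an unadjusted p under 0.05. The 6 of Dst ran from -0.26 to 0.68. In all 8 genes the smallest adjusted p of the index was 0.264 (limma), for Dst.

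Genes with several low probe sets were then compared within the gene. Of 360 genes with 2 low probe sets, 213 (59.2%) had index differences of one sign, and of 109 genes with 3 or more, 34 (31.2%) did. Low probe sets of 1 gene share the gene's level as their reference, so a common sign is not independent evidence. In 23 of these 360 and 109 genes, 2 low probe sets had an unadjusted p under 0.05, with one direction in 19. Counted singly, 13.4% of all low probe sets and 8.48% of all probe sets tested had such a p. Those shares count probe sets and not genes, so whether 23 genes are many or few cannot be read from them. The 4 with opposite directions were Grk2, Mtus1, Ncoa7 and Scmh1. No gene had 2 low probe sets that passed.

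Examples among these 23 were taken after their values were seen. Ptov1 had index differences of 0.84 at 4716093 and 0.57 at 4683762. Rab11b, a GTPase of recycling endosomes, had 0.56 at 4780279 and 0.49 at 5441385, with mutant means of 8.86 ± 0.15 and 7.96 ± 0.26 against wild-type means of 8.30 ± 0.09 and 7.47 ± 0.13 (SD, n = 3 each). Hk1, the hexokinase of brain, had -0.70 at 4695335 and -0.41 at 5476030. Wtap, a subunit of the RNA m6A methyltransferase, had 0.52 at 4950315 and 0.46 at 5131693. In Grk2, a kinase of G protein-coupled receptors, 5559193 was at 7.16 ± 0.10 in the mutants and 5.88 ± 0.45 in wild type (SD, n = 3 each), with 0.69 in index, while 5182627 had -0.50.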

How the data were processed

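The authors deposited log2 values of 6 arrays, each summarised at gene and at exon level; the log2 scale is inferred from the range of 2.32 to 14.50 on a 16-bit scanner. The labels' protocols name TRIzol extraction and the Affymetrix WT Terminal Labeling kit. The submitters' processing notes name mm8 as the build. How background was corrected and how arrays were normalized and summarised is not given in the sources used here; either could change differences between arrays. No value column was left unused.

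Probe sets were named from GEO's platform annotation, and 24312 symbols were updated through RefSeq (GRCm38.p6, names only). Of 229581 probe sets, 209279 had 1 symbol, 4446 several and 15856 none here. Rows with several symbols named no gene. The index was computed for 201085 probe sets of genes with at least 5 probe sets. Each probe set was left out of its own reference, which had to hold at least 3 probe sets. Own level, index and gene level were each tested two-sided in R 4.3.3 with lmFit and eBayes of limma 3.58.1, mutant minus wild type, with no covariate and no filter on low values. Adjustment was by Benjamini-Hochberg over all rows at 0.05. Fits were tested on simulated data. Python 3.11.15 with matplotlib 3.10.9 drew the figures.

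Low probe sets were named by rule: the smallest index p in each direction, 1 per gene (6 rises and 6 falls, filled because none passed), the 8 genes with the most low probe sets, up to 3 per gene list (6 for SR proteins), those nearest the limit of 3 and the 3 farthest below. The 8 that passed by own level were named as well. So were the second low probe set of Cdk17 and the examples of genes with several low probe sets, after their values were seen. The 18 lists hold 779 genes. The rule for low probe sets, the lists and the named genes were chosen with earlier results of these data known. Alternatives were other scalings, variance models, gene levels and limits, a filter at the 10th percentile, the replicate number as a block and leaving out each array; those for the gene level were added after seeing the data. Deviations of arrays with equal numbers correlated at -0.007, -0.024 and 0.014, against -0.066 to 0.074 for arrays with different numbers. These correlations cannot tell whether the mice were paired.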

Additional observations from a re-analysis of the deposited data

How the results depend on the processing

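No low probe set passed by index under any alternative except a threshold of 0.1, where 1 passed, lower and also by own level (Cdk17), as did 1 of the other probe sets of the same genes. Own-level calls were 5 higher and 3 lower; they became 40 and 18 with a variance trend and robust settings together, 35 and 17 at a threshold of 0.1, 12 and 6 with a filter at the 10th percentile, 9 and 3 with array weights, 1 and 1 at a limit of 4, 27 and 13 at a limit of 2, 4 and 1 at a gene median of 10 or more, and 0 with any 1 array left out. Whether equal replicate numbers pair the mice is not known. With the replicate block, own-level calls were 0 higher and 0 lower, and genes with a low probe set rose in 21 cases and fell in 22. In that fit 388 low and 1260 other probe sets had an unadjusted index p under 0.05 (limma). Genes with a low probe set that rose and fell numbered 215 and 134 with trend and robust, 160 and 96 at a threshold of 0.1, 64 and 63 after quantile normalization, 59 and 68 after median centring, and 12 to 41 and 14 to 23 without 1 array. Low probe sets with an unadjusted index p under 0.05 numbered 149 with trend and robust, 140 at a limit of 4, 734 at a limit of 2, 170 at a gene median of 10 or more and 282 to 450 without 1 array; for the other probe sets the last range was 1233 to 2045. Other limits select other probe sets, and the cause of the remaining shifts was not tested. Many named low probe sets were chosen for a small index p, which favours a kept sign. The next count therefore does not describe low probe sets at large. Of the 119 low probe sets named by rule or for passing by own level, 104 kept the sign of their index throughout. It turned for Ptbp1 5616977 after quantile normalization (-0.0043), Ciz1 5369436 (-0.012) and Ncoa7 4943905 (-0.00428) with array weights, Gpbp1l1 4833274 with the mean as gene level (-0.00822) and Ciz1 5181840 with the median of all probe sets (0.0037). Without 1 array it ran from -0.16 to 0.20 for Ptbp1 5616977, -0.0918 to 0.20, -0.25 to 0.11 and -0.0165 to 0.22 for Ciz1 5369436, 5181840 and 4496579, -0.22 to 0.46 for Dst 4834350, -0.15 to 0.11 and -0.85 to 0.16 for Ncoa7 4943905 and 5574016, -0.20 to 0.14 for Mtus1 5152706, -0.11 to 0.00445, -0.34 to 0.52 and -0.0649 to 0.33 for Phactr1 4739170, 5127233 and 4782839, -0.32 to 0.29, -0.0851 to 0.51 and -0.0454 to 0.40 for Gpbp1l1 4833274, 5601836 and 4997507, and -0.53 to 0.0129 for Kpna2 4342545. Signal over background was not measured here.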
